A study of Mus musculus with 13 samples.

Results

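In all, 10 genes of epidermal growth factor (EGF) and fibroblast growth factor (FGF) signalling, 10 of 16593 genes with a probe, were followed across mouse neural, fibroblast and embryonic stem cells. They were the receptors Egfr, Fgfr1, Fgfr2 and Fgfr3, the feedback inhibitors Spry1, Spry2, Spry4, Spred1 and Dusp6, and the transcription factor gene Etv5, chosen by symbol and read by 20 of 25697 probes. RNA was measured on 13 Illumina bead arrays, all labelled as strain C3H, with no genotype, culture medium, growth factor, sex or age given. Cultured neural stem cells (NSC), neural stem cells made by inducing embryonic fibroblasts (iNSC) and neural progenitors differentiated from embryonic stem cells (ESC NPC) were each sampled as 3 clones, 1 array a clone. MEF (the fibroblasts) and ESC (the embryonic stem cells) had a single array apiece, as did the samples labelled NSC-In vivo and iNSC-In vivo. For iNSC-In vivo the interval after the cells were placed into adult mouse brain is labelled as 14 without a unit. NSC-In vivo is not said to be transplanted, and neither label names a sort. Nothing says that the clones came from separate animals, so p-values measure only the spread between these arrays.

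Receptor tyrosine kinases of the EGF and FGF families bind their ligands at the cell surface and switch on the Ras and ERK kinase cascade. ERK signalling in turn raises transcripts of its own brakes, among them the Sprouty (Spry) and Spred proteins, which act on the steps to Ras and Raf, and the phosphatase Dusp6, which removes the activating phosphates from ERK. Etv5 is an ETS transcription factor whose gene is a common target of FGF signalling, and neural stem cells are commonly propagated with both growth factors.

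The labels were set against marker genes. All 9 measured neural stem markers were detected in NSC and iNSC, 8 of 9 in ESC NPC (not Olig2) and 8 of 9 in MEF. Their summed signal was 6774 in MEF, 5580 to 6299 in ESC NPC and 16970 to 20390 in NSC and iNSC. Of 8 astrocyte markers 6 were detected in MEF. Their sum was 8773 there, 4375 to 4787 in ESC NPC and 11720 to 21460 in NSC and iNSC. All 8 pluripotency markers were detected in ESC and also in ESC NPC. All 8 fibroblast markers were detected in MEF, and 5 of 8 in ESC NPC, with a summed signal of 1697 to 1850 there against 76.8 to 234.5 in NSC and iNSC and 30520 in MEF. Of the 9 neural stem markers 4 were detected in NSC-In vivo and 3 in iNSC-In vivo, with Sox2, Nes, Fabp7, Olig2 and Nr2e1 not detected on either. Both in vivo arrays detected all 6 microglia and all 6 oligodendrocyte markers, and they called 26.7% and 26.2% of probes detected against 40.8% to 49.9% elsewhere. Levels below are normalized log2 signals, a probe is called detected at a detection p under 0.01, and the number of arrays limits the precision. In RNA from bulk samples, fewer cells of a type and less RNA per cell cannot be told apart.

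Of the 10 genes, 9 had a probe detected on at least 1 array and entered the fit. The single Spry2 probe was detected on none. Spred1 and Dusp6 were detected on all 13 arrays, Egfr and Etv5 on 11, Spry4 on 8, Fgfr3 on 7, Fgfr1 and Fgfr2 on 2 each and Spry1 on 1. The last 3 of these genes were thus near background nearly everywhere, and their probes give a bound rather than a level on the other arrays.

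Promoters of the 4 genes whose levels varied most between the cultured lines are shown here. Egfr and Fgfr3 were lower in ESC NPC than in NSC, and Dusp6 and Etv5 were higher. The sequences are RefSeq's for GRCm38.p6, from 250 bases before to 50 after the start. Windows of 8 of the 10 genes were read, without Fgfr1 and Spry4. Capitals mark GGGCGG (the GC box) or CCGGAAG (an ETS core) on either strand.
Egfr, chr11:16751953-16752252, plus strand: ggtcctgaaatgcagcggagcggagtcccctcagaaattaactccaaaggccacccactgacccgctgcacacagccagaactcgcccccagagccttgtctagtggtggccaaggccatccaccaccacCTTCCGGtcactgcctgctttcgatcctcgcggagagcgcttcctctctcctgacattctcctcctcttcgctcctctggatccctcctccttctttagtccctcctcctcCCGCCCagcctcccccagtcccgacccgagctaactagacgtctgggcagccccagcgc
Fgfr3, chr5:33721474-33721773, plus strand, the upstream of 2 listed starts: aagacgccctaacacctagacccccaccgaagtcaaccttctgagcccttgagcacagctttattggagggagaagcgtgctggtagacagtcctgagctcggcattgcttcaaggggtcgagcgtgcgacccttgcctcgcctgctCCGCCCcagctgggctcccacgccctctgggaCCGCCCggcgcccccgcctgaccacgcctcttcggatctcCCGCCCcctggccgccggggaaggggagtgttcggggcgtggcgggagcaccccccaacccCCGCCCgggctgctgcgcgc
Dusp6, chr10:99262981-99263280, plus strand: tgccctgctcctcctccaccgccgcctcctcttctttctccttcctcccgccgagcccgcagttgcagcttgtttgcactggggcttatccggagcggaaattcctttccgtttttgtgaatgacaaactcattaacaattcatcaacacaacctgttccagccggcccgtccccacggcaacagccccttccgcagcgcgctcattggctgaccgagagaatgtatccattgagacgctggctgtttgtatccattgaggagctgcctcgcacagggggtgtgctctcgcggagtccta
Etv5, chr16:22439521-22439820, minus strand, the upstream of 2 listed starts: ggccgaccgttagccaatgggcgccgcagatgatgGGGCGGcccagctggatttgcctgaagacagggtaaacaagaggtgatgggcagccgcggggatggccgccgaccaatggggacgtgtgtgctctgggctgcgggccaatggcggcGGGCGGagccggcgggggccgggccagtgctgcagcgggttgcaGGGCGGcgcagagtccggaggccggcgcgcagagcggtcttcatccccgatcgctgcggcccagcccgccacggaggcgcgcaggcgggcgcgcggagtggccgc
The Egfr window held 1 GGGCGG and 1 CCGGAAG, the Fgfr3 window shown 4 GGGCGG and the Etv5 window shown 3. At the other listed starts, the Fgfr3 window held 2 GGGCGG and the Etv5 window none. The TATA box (TATAAA), the AP-1 site (TGANTCA) and the CRE (written in full as TGACGTCA) were searched on both strands as well. None of these letters was found in any of the 4 windows, and the Dusp6 window held neither the GC box nor the ETS core. Among 32851 mouse promoters of the same length, 35.7% held the GC box, 8.86% the ETS core, 13.6% the TATA box, 7.81% the AP-1 site and 1.79% the CRE. GC content of the windows shown was 62.3% for Egfr, 69.7% for Fgfr3, 57.3% for Dusp6 and 74.0% for Etv5, beside a median of 52.7% over all promoters. It was 73.0% at the other Fgfr3 start and 60.0% at the other Etv5 start. These matches describe letters in a window and not bound sites.

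Egfr, the EGF receptor, stood at 9.88, 9.60 and 10.18 in the NSC clones and at 10.37, 10.33 and 10.38 in the iNSC clones. The ESC NPC clones stood at 7.24, 7.02 and 7.18, MEF at 9.62, ESC at 4.40 (not detected), NSC-In vivo at 6.22 (not detected) and iNSC-In vivo at 7.19. Every iNSC clone lay above every NSC clone, and both groups lay far above all ESC NPC clones. In order of level, NSC and MEF did not differ beyond their spread (0.27 ± 0.20 SE, limma adjusted p = 0.298), nor did iNSC-In vivo and ESC NPC (0.05 ± 0.20, adjusted p = 0.851).

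ESC NPC carried less Egfr transcript than NSC by 2.74 ± 0.14 on the log2 scale (limma adjusted p = 4.15e-07, 3 against 3 clones), and iNSC exceeded ESC NPC by 3.21 ± 0.14 (adjusted p = 1.13e-07). Between iNSC and NSC the difference was small, 0.47 ± 0.14 with an adjusted p of 0.0442. That call ended without NSC replicate 1 or 2 (adjusted p = 0.104 and 0.0984), without any single iNSC clone (0.083 to 0.113) and without any single ESC NPC clone (0.0626 to 0.0719). It also ended with the deposited values (0.0957), without the filter on dim probes (0.0602), in a fit of the 2 groups (0.105) and with the second brightest probe (0.44 ± 0.19, adjusted p = 0.15). ESC NPC exceeded ESC, where Egfr was not detected, by at least 4.35-fold (adjusted p = 6.02e-06).

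Fgfr3, an FGF receptor of neural precursors and astrocytes, stood at 5.70, 5.64 and 5.96 in NSC and at 7.02, 6.98 and 6.94 in iNSC. MEF stood at 5.18, while no ESC NPC clone (4.26, 4.42 and 4.65), nor ESC (4.22), NSC-In vivo (4.38) or iNSC-In vivo (4.27) was detected. The groups of clones did not overlap, and the order iNSC, NSC, MEF, ESC NPC held with an adjusted p of at most 0.0204 between neighbours. The iNSC clones exceeded NSC by 1.21 ± 0.12 (limma adjusted p = 0.000158), or 2.32-fold. The rise passed in every alternative run for it, with a size from 0.64 without background correction to 1.60 with the deposited values. A second Fgfr3 probe was detected on no array. That probe read 4.47, 4.35 and 4.31 in NSC and 4.49, 4.38 and 4.69 in iNSC. The Fgfr3 differences given here thus rest on 1 probe. Fgfr3 was at least 1.95-fold lower in ESC NPC than in NSC (adjusted p = 1.73e-05) and at least 4.52-fold higher in iNSC than in ESC NPC (adjusted p = 2.39e-07). MEF lay below iNSC by 1.80 ± 0.18 (adjusted p = 3.03e-05).

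Fgfr1, an FGF receptor of mesenchymal and many other cells, was clearly detected in MEF alone, at 6.89, and marginally in iNSC clone 1, at 5.01. The remaining arrays lay between 4.33 and 4.83 without detection. The fit gave a lower Fgfr1 signal in iNSC than in MEF (limma adjusted p = 4.34e-05), but only 1 of 3 iNSC clones was detected, so no exact difference is given. A second Fgfr1 probe was detected only in MEF, at 4.86, against 4.16 to 4.42 elsewhere. Fgfr2, known for its epithelial roles, was detected in NSC clone 2 (5.24) and MEF (4.77), and its other arrays ranged from 4.21 to 4.77. Neither gene passed a test between NSC, iNSC and ESC NPC. The plot of the receptor genes by array shows these levels.

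**Figure D1:**
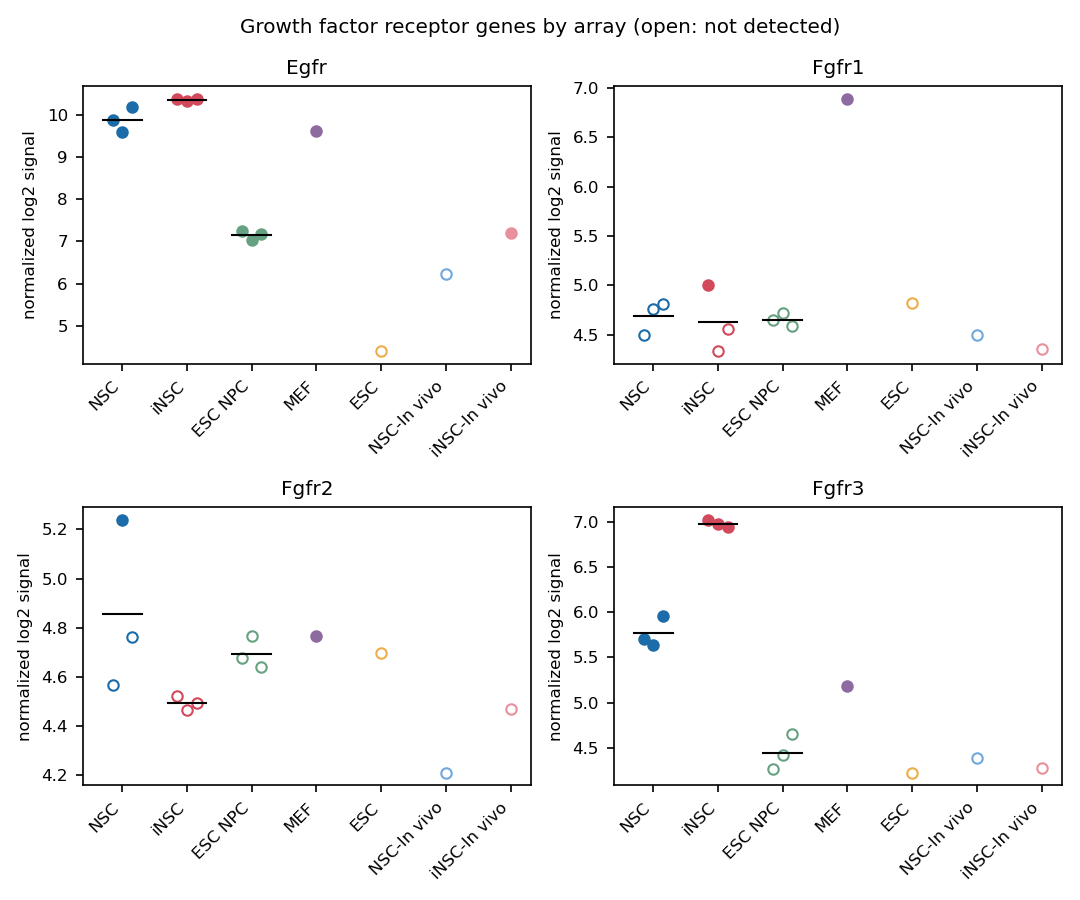
Normalized log2 signal of Egfr, Fgfr1, Fgfr2 and Fgfr3 (vertical axis, a separate scale per gene) on each array, grouped by kind of sample, with open circles where the probe was not detected and lines at the means of 3 clones. Egfr and Fgfr3 are highest in the iNSC clones, and Fgfr1 stands apart in MEF at 6.89.

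Egfr had 4 probes, which the array annotation assigns to a pair of transcript records, and they differed on MEF. The second brightest probe, of the other record, read 6.55, 6.78 and 7.15 in NSC, 7.09, 7.23 and 7.50 in iNSC and 4.92, 5.33 and 4.79 in ESC NPC. It read 8.11 in MEF, above all neural clones, and was not detected in ESC (4.28), NSC-In vivo (4.27) or iNSC-In vivo (5.46). With the brightest probe iNSC exceeded MEF by 0.74 ± 0.20 (limma adjusted p = 0.0119), whereas with the second they were lower by 0.83 ± 0.27 (adjusted p = 0.0292). The third probe, of the same record as the second, read 6.998 in MEF and 7.004, 7.06 and 7.43 in iNSC. The fourth, of the brightest probe's record, read 4.60 in MEF and 5.18, 5.49 and 5.27 in iNSC. The direction of Egfr between iNSC and MEF therefore depends on the probe, and the mean of the probes gave 0.20 ± 0.19 (adjusted p = 0.43). The low level in ESC NPC held in the second probe too, by -1.81 ± 0.19 against NSC (adjusted p = 3.76e-05), while its rise from ESC to ESC NPC did not pass there (0.73 ± 0.27, adjusted p = 0.0532).

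**Figure D2:**
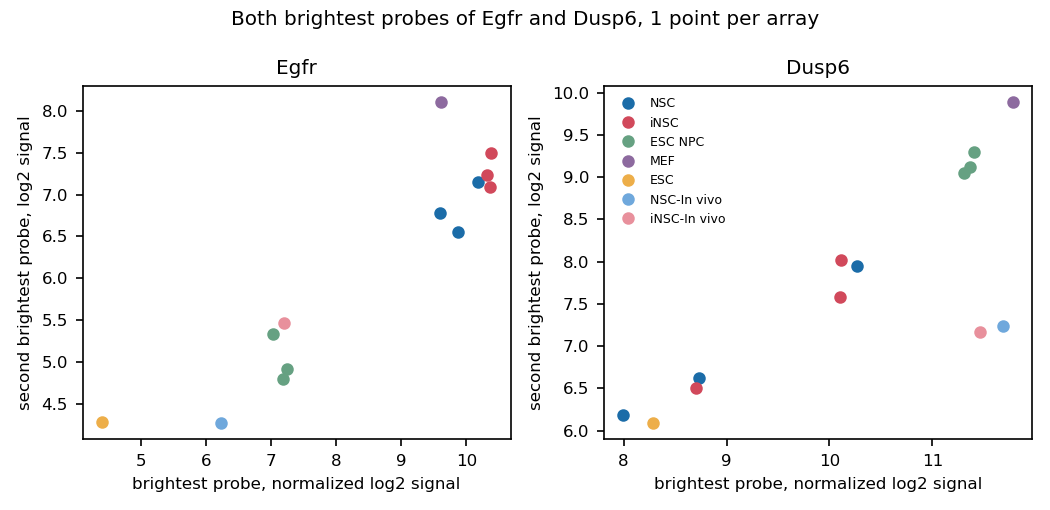
Normalized log2 signal of the brightest probe (horizontal axis) and the second brightest probe (vertical axis) of Egfr and Dusp6, 1 point per array and a colour per kind of sample. For Egfr the MEF array lies above the NSC and iNSC arrays on the vertical axis alone, and for Dusp6 both in vivo arrays lie below the trend of the other arrays, at 7.24 and 7.17 on the second probe.

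Dusp6, the ERK phosphatase, stood at 8.73, 7.997 and 10.27 in NSC, at 10.10, 8.70 and 10.11 in iNSC and at 11.31, 11.41 and 11.37 in ESC NPC. MEF stood at 11.78, ESC at 8.28, NSC-In vivo at 11.69 and iNSC-In vivo at 11.46. The NSC and iNSC clones overlapped, and all of them lay below every ESC NPC clone. The part of the fibroblast markers, which ESC NPC and MEF share with this high Dusp6, was not tested. ESC NPC exceeded NSC by 2.36 ± 0.55 (limma adjusted p = 0.00469) and ESC by 3.08 ± 0.77 (adjusted p = 0.00985). The iNSC clones were lower than ESC NPC by 1.72 ± 0.55 (adjusted p = 0.0212), which ended with median scaling (adjusted p = 0.0577), without iNSC replicate 2 (0.0761) and without any single ESC NPC clone (0.0534 to 0.0576). They were lower than MEF by 2.14 ± 0.77 (adjusted p = 0.0442). Dusp6 ran opposite to Egfr between ESC NPC and both NSC and iNSC, with higher Dusp6 where Egfr was lower.

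Etv5 stood at 6.05, 4.99 and 6.22 in NSC, at 7.35, 6.08 and 6.73 in iNSC and at 7.23, 7.06 and 7.05 in ESC NPC. MEF stood at 7.23 and ESC at 9.68, while NSC-In vivo (5.30) and iNSC-In vivo (4.94) were not detected. ESC was the highest array, the NSC and iNSC clones overlapped, and every NSC clone lay below every ESC NPC clone. ESC NPC exceeded NSC by 1.36 ± 0.36 (limma adjusted p = 0.00958, or 0.0525 with median scaling) and lay below ESC by 2.57 ± 0.51 (adjusted p = 0.00285). Each iNSC clone exceeded the NSC clone of its number, and the difference of 0.97 ± 0.36 had an adjusted p of 0.0977. The adjusted p was 0.0294 with a replicate block over the NSC, iNSC and ESC NPC clones, though ESC NPC numbers were not taken as paired.

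Spry4, a Sprouty inhibitor, was highest in MEF, at 6.56. The NSC clones stood at 4.95, 4.92 and 5.69, the iNSC clones at 4.82, 5.02 and 5.55 (of these only clone 3 was detected) and the ESC NPC clones at 4.999, 4.91 and 4.84. It was not detected in ESC (4.67) or on the in vivo arrays (4.77 for NSC and 4.50 for iNSC). The iNSC clones were lower than MEF by 1.44 ± 0.33 (limma adjusted p = 0.00548), a size that is approximate because only 1 of 3 iNSC clones was detected. The cultured neural groups overlapped. Spry1 was detected only in ESC NPC clone 2, at 4.99, with 4.25 to 4.56 elsewhere, and Spry2 read 4.17 to 4.53 without detection.

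Spred1, a Sprouty-related inhibitor of Ras activation, was nearly level over the cultured neural lines and MEF. It read 9.01, 9.18 and 8.61 in NSC, 8.91, 9.03 and 9.10 in iNSC, 9.03, 9.07 and 9.15 in ESC NPC and 9.08 in MEF. ESC stood apart at 6.44, and ESC NPC exceeded it by 2.64 ± 0.20 (limma adjusted p = 7.67e-06), or 6.24-fold. The 95% interval of iNSC minus NSC ran from -0.24 to 0.40, and that of ESC NPC minus NSC from -0.17 to 0.47. With median scaling, which moved the median of all genes by -0.172 between ESC NPC and NSC, the Spred1 difference there turned to -0.39.

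**Figure D3:**
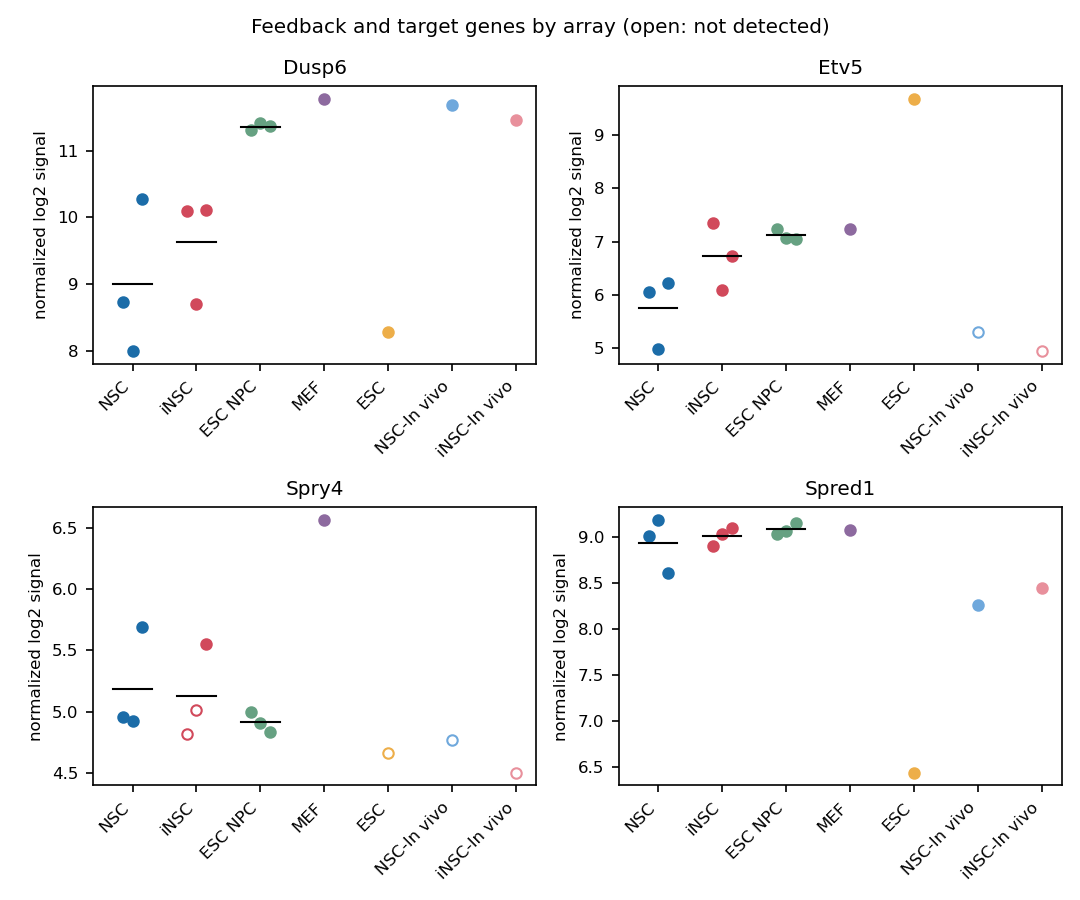
Normalized log2 signal of the feedback genes and Etv5 (vertical axis, a separate scale per gene) on each array, grouped by kind of sample, with open circles where the probe was not detected and lines at the means of 3 clones. Dusp6 is at 11.31 or above in ESC NPC, MEF and both in vivo arrays, Etv5 is highest in ESC at 9.68, and Spred1 is lowest in ESC at 6.44.

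Between iNSC and NSC, which asks how cells converted from fibroblasts compare with neural stem cells in culture, 2 of the 9 genes tested rose (Egfr and Fgfr3) and none fell, against 19.7% of all genes called (10.3% higher and 9.42% lower). Between ESC NPC and NSC, Dusp6 and Etv5 rose and Egfr and Fgfr3 fell, 4 of 9 against 57.4% of all genes (27.8% higher and 29.6% lower). Between iNSC and ESC NPC, Egfr and Fgfr3 rose and Dusp6 fell, 3 of 9 against 60.4% (31.4% higher and 28.9% lower). These 3 comparisons share arrays and are not independent. In the first the share of called genes was close to that of the whole table, and in the other 2 it was below it.

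Between iNSC and MEF, the cells they were induced from, 2 of 9 genes rose (Egfr and Fgfr3) and 3 fell (Fgfr1, Spry4 and Dusp6), against 49.8% of all genes (28% higher and 21.9% lower). The MEF array also carried neural stem and astrocyte marker signal, whose part in these calls was not tested. The rise of Egfr rests on its brightest probe, since the second gave -0.83 (adjusted p = 0.0292). The Dusp6 call ended with median scaling (limma adjusted p = 0.13), the deposited values (0.0579), no filter (0.0856) and the trended and robust prior (0.0501), without iNSC replicate 2 (0.0881), without NSC replicate 1 (0.0587) and without any single ESC NPC clone (0.0662 to 0.0669). Between ESC NPC and ESC, Egfr, Spred1 and Dusp6 rose and Etv5 fell, 4 of 9 against 44.7% (22.2% higher and 22.5% lower). With 1 array, MEF and ESC were assumed to vary like the clones, which these data cannot check. On both, 0.156% of the deposited intensities had at most 1 decimal, against 100% on every other array. Whether these arrays were also handled apart is not stated, and such a difference could not be told apart from one of cell kind.

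**Figure D4:**
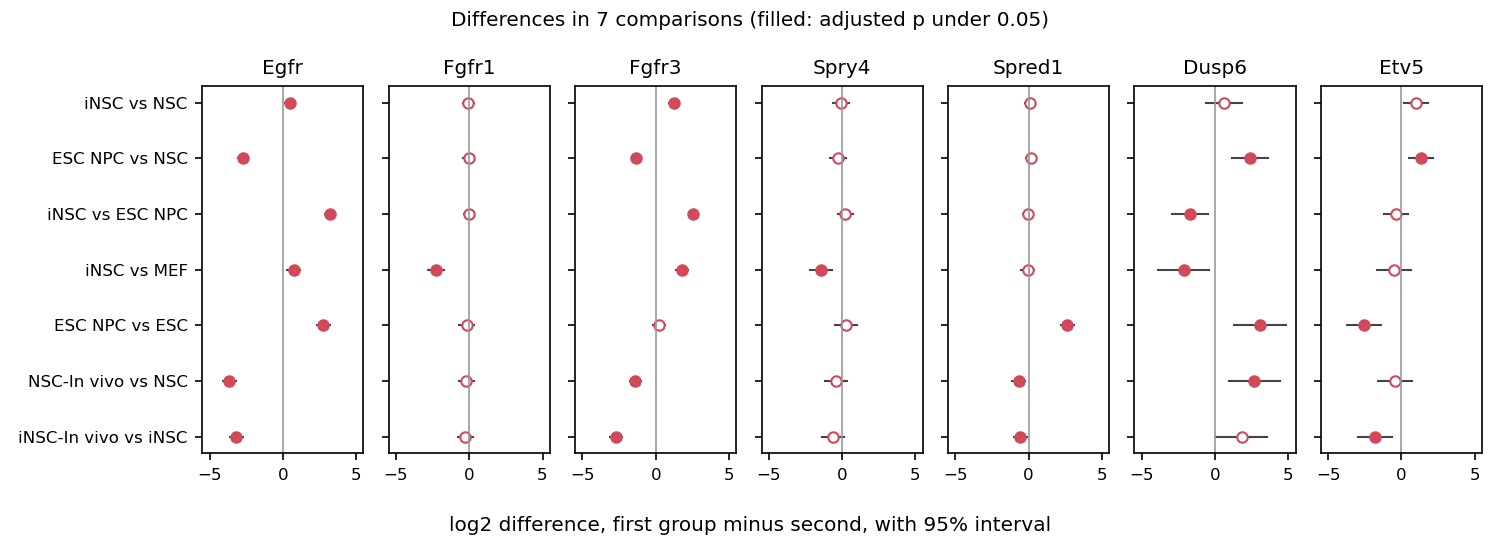
Log2 differences (horizontal axis, first group minus second) with 95% intervals from limma for 7 genes in 7 comparisons (rows), with filled points where the adjusted p is under 0.05. Egfr and Fgfr3 lie to the right for iNSC against NSC, ESC NPC and MEF and to the left for ESC NPC against NSC and for both in vivo comparisons.

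The clones of NSC and iNSC varied widely in Dusp6, Etv5 and Spry4, but not in every feedback gene. The SD of Dusp6 was 1.16 over the NSC clones, 0.81 over the iNSC clones and 0.05 over the ESC NPC clones, beside medians over all genes of 0.164, 0.149 and 0.101. Etv5 had SDs of 0.66, 0.64 and 0.10, and Spry4, detected in 1 of 3 iNSC clones, of 0.43, 0.38 and 0.08. Spred1 varied less, with 0.29, 0.10 and 0.06. Spry1, near background, had 0.08, 0.11 and 0.36. Clone 2 was the lowest of its group for Egfr, Dusp6 and Etv5 in both NSC and iNSC, 3 of 5 genes detected on these 6 arrays, with Fgfr3 and Spred1 the others. Over all genes detected there, 1099 of 6764 (16.2%) had this pattern. It also held for 2 of 7 other feedback genes (Il17rd and Errfi1) and 4 of 7 ETS and ERK target genes (Etv4, Egr1, Egr2 and Ccnd1). For Egfr the iNSC clones spanned only 0.06, so the rank of clone 2 there says little. The pattern was picked after the values were seen, and what NSC and iNSC clones of 1 number share is not stated.

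**Figure D5:**
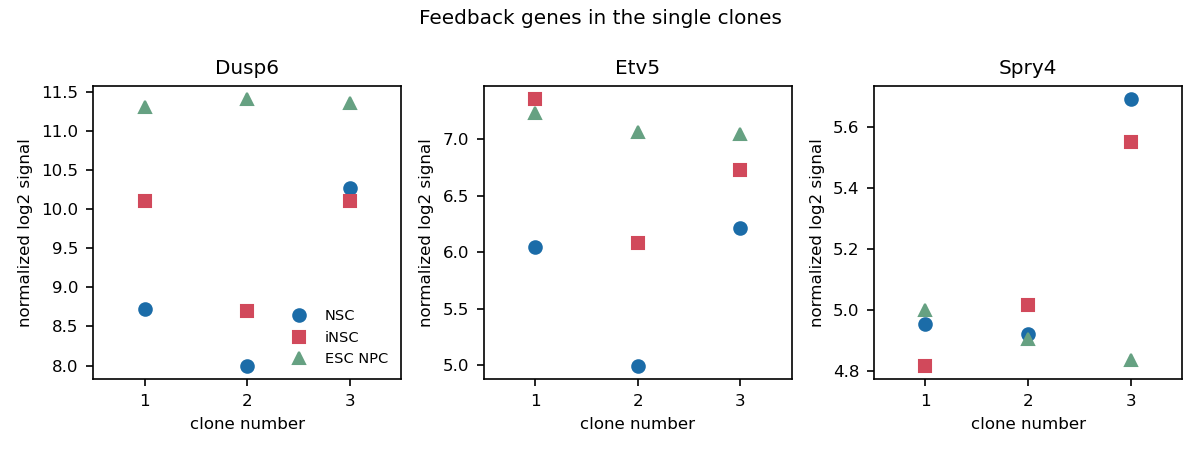
Normalized log2 signal (vertical axis, a separate scale per gene) of Dusp6, Etv5 and Spry4 against the clone number (horizontal axis, which has no order), for NSC, iNSC and ESC NPC, 1 point per array. Clone 2 has the lowest Dusp6 and Etv5 of the NSC and of the iNSC clones, and the ESC NPC clones lie close together for all 3 genes.

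In the arrays labelled in vivo Egfr was low. Egfr was at least 10.9-fold lower in NSC-In vivo than in NSC (limma adjusted p = 2.01e-07), and in iNSC-In vivo it was lower than in iNSC by 3.17 ± 0.20 (adjusted p = 5.32e-07). Fgfr3 was not detected on either. It was at least 1.39-fold lower in iNSC-In vivo than in iNSC (adjusted p = 6.54e-07). For NSC-In vivo the fit called it lower (adjusted p = 7.54e-05), but no fall can be read, because the lowest detected level on that array, 6.44, lies above the NSC clones. The lowest detected level elsewhere was 4.60 to 5.05, and 6.51 on iNSC-In vivo.

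The fit called 1 of 9 genes higher in NSC-In vivo than in NSC (Dusp6) and 4 lower (Egfr, Fgfr2, Fgfr3 and Spred1), against 68% of all genes called (33.9% higher and 34.1% lower). For 2 of the 4, Fgfr2 (limma adjusted p = 0.0245, or 0.149 with median scaling) and Fgfr3, the culture level lies below the lowest detected level on NSC-In vivo, so a fall cannot be read from them. iNSC-In vivo had 4 of 9 lower than iNSC (Egfr, Fgfr3, Spred1 and Etv5), also against 68% (33.6% higher and 34.4% lower), and none higher, with Dusp6 at 1.82 ± 0.77 (unadjusted p = 0.0425, limma adjusted p = 0.0613, and passed when NSC replicate 2 (0.03) or NSC replicate 3 (0.0113) was left out). The fit called Etv5 lower (adjusted p = 0.0113), but it was not detected there and the bound was only 1.16-fold. As iNSC clone 2 (6.08) lies below the lowest detected level on iNSC-In vivo, 6.505, a fall is not established. Spred1 was lower by 0.67 ± 0.20 in NSC-In vivo (adjusted p = 0.0139) and by 0.56 ± 0.20 in iNSC-In vivo (adjusted p = 0.0303, but 0.0562 with the deposited values, 0.0552 without iNSC replicate 2 and 0.0689 without iNSC replicate 3).

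The high Dusp6 on the in vivo arrays was seen with 1 probe. With the brightest probe NSC-In vivo exceeded NSC by 2.69 ± 0.77 (limma adjusted p = 0.0117). The second probe, detected on all 13 arrays, read 7.24 there and 7.17 in iNSC-In vivo, within the NSC range of 6.18 to 7.94. Its differences were 0.32 ± 0.66 from NSC (adjusted p = 0.694) and -0.20 ± 0.66 from iNSC (adjusted p = 0.816). With median scaling the brightest probe gave 1.07 against NSC (adjusted p = 0.23).

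Markers of some other brain cells were higher on the in vivo arrays, and those of others were lower. The summed signal of 6 microglia genes was 5077 in NSC-In vivo and 9353 in iNSC-In vivo, against 19.3 to 54.2 on the other arrays. That of 6 oligodendrocyte genes was 28800 and 12590, against at most 3384, and that of 6 endothelial genes was 13460 and 2644, against at most 280.6. The other way, 8 astrocyte genes summed to 9126 and 5250, against 11720 to 21460 in NSC and iNSC. For 5 oligodendrocyte precursor genes the sums were 10900 and 5702, against 14440 to 23910 in NSC and iNSC. The part of these cell types in the in vivo values of the receptor and feedback genes was not tested. Between iNSC-In vivo and NSC-In vivo, with 1 array each and no test, 0 of 9 genes differed by 2-fold or more, against 18.4% of all genes, and 2 did in the deposited values. Of the 9, 6 were detected on neither array and could hardly differ, so the count says little. Spred1 and Dusp6 were detected on both, and Egfr in iNSC-In vivo alone, at 7.19 beside 6.22.

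The in vivo step of iNSC was also set against that of NSC. Of the 9 genes only Fgfr3 passed (limma adjusted p = 0.00371), against 27.8% of all genes. Neither in vivo array detected Fgfr3 and the cultures alone differed by 1.21, so unequal steps are not shown.

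Of 82 other genes of these pathways 67 had a probe and 51 were tested. Between iNSC and NSC 5 rose, among them the EGF family ligand Hbegf (1.49 ± 0.17, limma adjusted p = 0.000293) and the inhibitors Errfi1 (1.31 ± 0.32), which binds the EGF receptor, and Il17rd (1.23 ± 0.16), which dampens FGF signalling. The 2 that fell were Ier3, an early response gene, at least 2.53-fold, and Spry3, a further Sprouty, at least 2.32-fold. The 7 calls are 13.7% of the 51, beside 19.7% of all genes, and the median difference was 0.03, beside 0.01 over all genes. In ESC NPC against NSC 14 rose and 10 fell (47.1%, beside 57.4% of all genes), with a median of 0.05 beside -0.02. Dusp4, another phosphatase of the ERK pathway, was higher by 3.51 ± 0.16, the adaptor Shc1 by 2.41 ± 0.17 and the ligand Fgf5 by at least 6.05-fold. Fos (-2.39 ± 0.75), Fgf1 (-2.13 ± 0.27) and the EGF receptor inhibitor Lrig1 (-1.81 ± 0.15) fell. Dusp4 was detected in 1 of 3 NSC clones and Fgf1 in 1 of 3 ESC NPC clones, so the sizes for Dusp4 and Fgf1 are approximate.

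Between iNSC and ESC NPC 13 of the 51 rose and 14 fell (52.9%, beside 60.4%), with a median of -0.01 beside 0.02. The decoy receptor Fgfrl1 was higher in iNSC by 2.17 ± 0.41. Between iNSC and MEF 6 rose and 18 fell (47.1%, beside 49.8%), with a median of -0.16 beside 0.09, and Fgf7, a ligand made by mesenchyme, was at least 64.5-fold lower in iNSC. Between ESC NPC and ESC 12 rose and 6 fell (35.3%, beside 44.7%), with a median of 0.27 beside 0.01. The ligands Fgf17 (at least 10.02-fold) and Fgf4 (at least 4.55-fold) were lower in ESC NPC, where neither was detected. The fit called 19 higher and 9 lower in NSC-In vivo (54.9%, beside 68%) and 18 higher and 14 lower in iNSC-In vivo (62.7%, beside 68%). Of those called higher, 7 in NSC-In vivo and 9 in iNSC-In vivo were not detected on that array, so no rise can be read for them. Of those called lower, 4 and 2 had neither a detected level in vivo nor a bound. Lrig1 was lower by 4.42 ± 0.21 in NSC-In vivo and at least 25.9-fold lower in iNSC-In vivo, and Ier3 was higher by 7.31 ± 0.46 and at least 377-fold.

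Across the 13 arrays, the level of Egfr ran most like those of Aqp4, a water channel of astrocytes (Pearson r = 0.99), Sgcb (0.99) and Nfix (0.99). That of Fgfr3 ran like Fbxo25 (0.98), Sall3 (0.98) and Ckmt2 (0.97), and that of Spred1 like Lmo4 (0.96), Nr2f1 (0.95) and Gm1673 (0.94). Dusp6 was nearest to Arhgap29 (0.90), Col4a1 (0.89) and Fam111a (0.89), Etv5 to Trip12 (0.93), Zfp809 (0.93) and Avpi1 (0.92), and Spry4 to Ermp1 (0.92), Rxfp3 (0.90) and C1ql3 (0.90). Fgfr1 was nearest to Serpinb2, Esm1 and Csta3 (0.97, 0.97 and 0.96). Fgfr2, nearest to Dlx2 (0.85), Dlx1 (0.84) and Alk (0.80), and Spry1, nearest to Krt26 (0.78), Tex48 (0.77) and Tifab (0.72), were detected on 2 and 1 arrays only. Among the followed genes Egfr and Fgfr3 were most alike (0.87), then Fgfr1 and Spry4 (0.80) and Egfr and Spred1 (0.69), while Dusp6 and Etv5 gave -0.10. All these coefficients describe 13 arrays that share 7 kinds of sample and one normalization, and they carry no test.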

How the data were processed

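The authors deposited, for every probe and array, a bead-averaged intensity value with a detection p-value, and a table of normalized values that is on a log2 scale as far as the values show. BeadStudio 3.2, RMA and lumi are named per the submitters' processing notes, without role or order, and the genome build was not given in the sources used here.

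From the deposited intensity values, the background was removed by normexp with parameters estimated from detection, 16 was added, and arrays were quantile-normalized and log2-transformed (limma 3.58.1, R 4.3.3, statmod 1.5.0). Of 25697 probes, 23978 carry 1 gene symbol in the platform annotation and 1719 are unnamed here. Probes detected (p under 0.01) on 1 or more of 13 arrays were kept. The probe of highest mean stood for its gene, which left 10923 genes. A limma model of the 7 groups had 6 residual degrees of freedom and a prior of 3.10, with two-sided tests, Benjamini-Hochberg adjustment over all 10923 genes and a threshold of 0.05. Errors after ± are standard errors unless called SD. Groups of 1 array borrow the spread of the clones. A fold against a group without detection is a bound, with each undetected array set to the higher of its lowest detected level and the probe's own value.

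The 10 genes, the lists and the tests were chosen with earlier results of these data known. Named pathway genes come from the 3 largest rises and 3 largest falls per comparison that passed with groups that do not overlap, and likeness is given for the 3 genes of highest r. Deviations from the group mean correlated at 0.211, 0.503 and 0.276 for same-numbered NSC and iNSC clones, at -0.042 to -0.00918 for NSC and ESC NPC and at 0.0362 to 0.115 for iNSC and ESC NPC. NSC and iNSC numbers were taken as paired because each of their correlations exceeds 0.1, which no label states. Unlike-numbered NSC and iNSC clones gave -0.403 to 0.235, so the numbers do not match uniquely. The fits as reported did not use the pairing, which entered only through the replicate block as an alternative. The settings varied were background correction, scaling between arrays, the source of values (the deposited log2 table), the filter on dim probes, the averaging of probes, the prior, the replicate block, the samples in the fit, and the omission of single clones or of the in vivo arrays. After the data were seen, 2 more were tried, namely the omission of MEF and ESC and the second brightest probe of Egfr and Dusp6. No slide is named in the headers, so slides could not be used as a block.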

Additional observations from a re-analysis of the deposited data

Results flagged for a closer look

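Fgfr3 stood out in the test of whether the change from culture to in vivo differs between the 2 lineages, where the fit gave -1.33 ± 0.25 (limma interaction, adjusted p = 0.00371). The probe was detected on all 6 culture arrays of iNSC and NSC and on neither in vivo array, and each in vivo group has 1 array. With both in vivo values below detection the fitted value lies close to the difference between the cultures, 1.21, turned in sign, and it does not show that the steps were unequal.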

How the results depend on the processing

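Values were recomputed under the alternatives that apply to them. The second brightest probe concerns Egfr and Dusp6 only, the replicate block 3 comparisons, and detection on at least 3 arrays leaves 6 of the 9 genes. Of 1286 recomputed values for single genes, 1210 kept their direction and their side of the threshold, 36 fell short of it, 7 newly passed and 33 changed sign. The count of genes that passed between iNSC and NSC, 2, became 1 with the deposited values, without a filter and in a fit of the 2 groups only, and ranged from 1 to 2 when a clone was left out. The replicate block gave 3 for iNSC against NSC (Etv5 was added), 4 for ESC NPC against NSC and 3 for iNSC against ESC NPC, and changed no other call. That block spanned the NSC, iNSC and ESC NPC clones, although ESC NPC numbers were not taken as paired. NSC-In vivo against NSC went from 5 to 3 with median scaling. With the deposited values the in vivo difference between lineages went from 1 to 2 (Fgfr2 2.21 was added) and the in vivo pair had 2 genes past 2-fold in place of 0. With a clone left out the counts were 2 to 3 for iNSC against ESC NPC, 4 to 5 for iNSC against MEF and 3 to 6 for iNSC-In vivo against iNSC. They stayed at 4 for ESC NPC against NSC and against ESC, at 5 for NSC-In vivo against NSC and at 1 for the in vivo difference.

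Signs turned with median scaling for Spred1 in ESC NPC against NSC (-0.39), iNSC against ESC NPC (0.45, limma adjusted p = 0.0336) and iNSC against MEF (0.51), for Fgfr1 in iNSC against ESC NPC (0.0087), for Spry1 in NSC-In vivo (0.012) and iNSC-In vivo (0.041), for Fgfr2 in iNSC-In vivo (0.066) and for Spry4 in the in vivo difference (0.070). The mean of the probes turned Fgfr1 in iNSC against ESC NPC (0.058), and the second probe turned Egfr in iNSC against MEF (-0.83) and Dusp6 in iNSC-In vivo (-0.20). The cause was not tested. With a clone left out, differences that crossed 0 between iNSC and NSC were Fgfr1 (-0.25 to 0.091), Spred1 (-0.082 to 0.20), Spry1 (-0.099 to 0.011) and Spry4 (-0.27 to 0.19). Between ESC NPC and NSC they were Fgfr1 (-0.13 to 0.021), Fgfr2 (-0.31 to 0.031), Spred1 (-0.014 to 0.27) and Spry1 (-0.13 to 0.20), and between iNSC and ESC NPC Fgfr1 (-0.21 to 0.13) and Spry1 (-0.24 to 0.086). The rest were Spry1 in iNSC against MEF (-0.045 to 0.065), Fgfr2 in ESC NPC against ESC (-0.038 to 0.025) and, in the in vivo difference, Fgfr1 (-0.23 to 0.11), Spred1 (-0.018 to 0.27), Spry1 (-0.0042 to 0.11) and Spry4 (-0.46 to 0.0054). None of the differences that crossed 0 with a clone left out passed in the fit as reported.

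Median scaling moved the median of all genes by -0.172 for ESC NPC against NSC, 0.146 for iNSC against ESC NPC, 0.215 for iNSC against MEF, -0.836 for NSC-In vivo and -0.762 for iNSC-In vivo. The share of calls that were higher went from 48.4% to 32.3%, from 52.1% to 65.6%, from 56.1% to 66.2%, from 49.8% to 21.7% and from 49.4% to 21% in the same order. The in vivo difference called 3037 genes and 1802 with median scaling. The in vivo pair had 2009 genes past 2-fold, and 945 without background correction, 1254 with median scaling and 3479 with the deposited values. Low signal over background limits Fgfr1, Fgfr2, Spry1 and Spry2 on nearly all arrays, and all dim genes in vivo.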
